A study of Mus musculus with 2 samples.

Results

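The 10 immediate early genes described here were the activator protein 1 (AP-1) members Fos, Fosb, Jun, Junb and Jund, together with Egr1, Ier2, Atf3, Nr4a1 and Btg2. They were taken by symbol from 46983 genes, and all 10 were found. Their unique molecular identifiers (UMIs, counts of distinct captured transcripts) were summed in 2 single-cell libraries of islet cells from 9-day-old mice. The Isl1CKO library came from animals of genotype Neurod1 Cre/+; Isl1f/f, and the control library from Neurod1 Cre/+; Isl1f/+ animals, which carry the same Cre and 1 floxed Isl1 allele. Cre follows Neurod1, a gene of endocrine progenitors and islet cells, so recombination is limited to cells that have expressed it. Cells from 6 animals per genotype were pooled and sorted for the tdTomato reporter. Both genotypes had actinomycin D, at 25 µg/ml, in the collagenase perfusion and again in the trypsin step of 5 min at 37 °C. No library without actinomycin D was analysed here, so its effect on these genes was not tested. There was 1 library per genotype and no replicate, so no difference below has a test, and every interval is a 95% interval for counting error only.

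Immediate early genes are transcribed within minutes of a stimulus from factors already present in the cell, without new protein synthesis, and most of their transcripts decay fast. Serum response factor and CREB are the classical activators of many of them. Enzymatic dissociation of tissue is a well known stimulus for Fos, Jun and Egr1, and actinomycin D, which binds DNA and blocks RNA polymerases, is added to limit it. In beta cells, glucose, calcium and cyclic AMP signals also induce Fos, Egr1 and Nr4a1.

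Called cells numbered 3020 in the Isl1CKO library, with a median of 24906.5 UMIs, and 2504 in the control library, with a median of 22638.5. The deposited Isl1CKO barcodes were all kept, and control barcodes needed at least 6825 UMIs. Cells were grouped by rule into an insulin class (Ins1 and Ins2 at least 20% of UMIs; 383 Isl1CKO and 898 control cells), a control Gcg class (at least 10%; 617 cells) and a control Sst class (at least 5%; 539 cells). The Isl1CKO library also had a Ttr class (at least 5%; 1445 cells) and a Fev class (at least 3 UMIs; 2035 cells), Ttr encoding transthyretin, which alpha cells express strongly, and Fev a transcription factor of endocrine progenitors and some islet cells. The last 2 classes shared 1031 cells, so 1004 cells with Fev and without Ttr were also set against 414 with Ttr and without Fev. Only 2 Isl1CKO cells met the Gcg rule and 6 the Sst rule, too few to describe. Barcodes shared by the libraries numbered 4. Islet hormones and Ttr took 18.4% of Isl1CKO UMIs and 53.9% of control UMIs, so levels are given as counts per 1000000 UMIs outside those 9 genes (CPM). In a 3′ assay these levels can be compared between genes without regard to length. Isl1, the targeted gene, was at 565 CPM in Isl1CKO cells and 550 CPM in control cells. The labels do not say which part of Isl1 is floxed, so this 3′ count checks nothing about the deletion. Summed beta-cell markers other than the hormones were lower in the Isl1CKO insulin class (1711 CPM) than in the control insulin class (3484 CPM), and all 6 had UMIs in both. The alpha-cell list without Gcg and Ttr summed to 14929 CPM in the Isl1CKO Ttr class and 3352 CPM in the control Gcg class. The delta-cell list without Sst summed to 20025 CPM in the control Sst class. It was also high in the control Gcg class, at 12664 CPM, and the control insulin class, at 8593 CPM. Mafa, a defining beta-cell factor, had no UMI in the Isl1CKO Ttr or Fev class. Cells with at least 3 markers of a mesenchymal, endothelial, immune, acinar or neural list made up 14.8% of Isl1CKO cells and 18.7% of control cells. Over all cells the mesenchymal list summed to 77.8 CPM in Isl1CKO and 350 CPM in control, and the acinar list to 1175 and 1515 CPM in the same order.

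Promoter letters are given for 4 members that behaved differently below: Fos and Junb, which differed between cell classes, Nr4a1, which was higher in Isl1CKO cells, and Btg2, which was near level. The sequences come from RefSeq on GRCm38.p6, 5′ to 3′ on the gene's strand, each 140 bases upstream of a RefSeq start. They are Fos, chr12:85473750-85473889 on the plus strand, Junb, chr8:84978749-84978888 on the minus strand, Nr4a1, chr15:101266706-101266845 on the plus strand, and Btg2, chr1:134079206-134079345 on the minus strand. The Fos, Junb and Nr4a1 stretches end 1 base before the start, and the Btg2 stretch ends 51 bases before it. The Nr4a1 start is internal to the gene as GENCODE draws it. Capitals mark the core of the cyclic AMP response element (CRE), TGACG or its complement, the full element TGACGTCA in Btg2, and matches to the EGR letters GCGNGGGCG on either strand in Nr4a1 and Btg2.
Fos: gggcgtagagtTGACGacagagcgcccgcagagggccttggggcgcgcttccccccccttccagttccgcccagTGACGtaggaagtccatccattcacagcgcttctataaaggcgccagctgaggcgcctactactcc
Junb: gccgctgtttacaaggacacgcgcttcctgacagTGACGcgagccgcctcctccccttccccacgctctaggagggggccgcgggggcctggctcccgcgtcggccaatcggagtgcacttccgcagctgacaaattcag
Nr4a1: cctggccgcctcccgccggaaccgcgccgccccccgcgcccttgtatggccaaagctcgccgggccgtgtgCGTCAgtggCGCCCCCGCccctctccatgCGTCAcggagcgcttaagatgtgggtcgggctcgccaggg
Btg2: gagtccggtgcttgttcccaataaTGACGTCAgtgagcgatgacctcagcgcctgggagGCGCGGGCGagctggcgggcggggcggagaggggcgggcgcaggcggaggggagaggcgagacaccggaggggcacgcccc

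Of the 10 members, 8 had a RefSeq window of 250 upstream bases, and Egr1 and Ier2 had none. On either strand, the CRE core lay in 6 of the 8 members (Fos, Fosb, Junb, Atf3, Nr4a1 and Btg2) and in 17.8% of all 32841 windows. Nr4a1 held 4 matches, the most of the 8, with 2 in the printed stretch and 2 further upstream. The full CRE, which contains the core, lay in 1 member, Btg2, and in 1.55% of windows. EGR letters lay in 3 members (Fosb, Nr4a1 and Btg2) and in 4.70% of windows. The AP-1 letters TGANTCA, found in 6.75% of windows, and the CArG box, the target of serum response factor, found in 1.47%, lay in no member's window. At these low shares, absence from 8 windows does not set the members apart from other genes. Bases further upstream than 250 were not searched. These are matches of letters in short windows and say nothing of binding.

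Summed over the 10 members, levels were 657 CPM (651 to 664) in Isl1CKO cells and 756 CPM (747 to 765) in control cells. Jund and Btg2 supplied most of these UMIs, 78.8% in Isl1CKO and 71.9% in control cells. By class, the sum was 508 CPM in the Isl1CKO insulin class, 635 in the Ttr class and 666 in the Fev class. It was 667 CPM in the control insulin class, 780 in the Gcg class and 799 in the Sst class. Without Jund and Btg2, a trimming chosen after their levels were seen, the classes spread further. The remaining 8 members summed to 86.9 CPM in the Isl1CKO insulin class, 77.7 in the Ttr class and 143 in the Fev class, against 84.2 in the control insulin class, 280 in the Gcg class and 315 in the Sst class. Among these classes, insulin cells of both libraries and Isl1CKO Ttr cells were thus the lowest, and control Gcg and Sst cells the highest. The 465 control cells that met no class rule are not ranked here. They held 1798 UMIs of these 8 members among 5966162 UMIs outside the hormones and Ttr, against 2471 among 8826051 in Gcg cells.

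**Figure D1:**
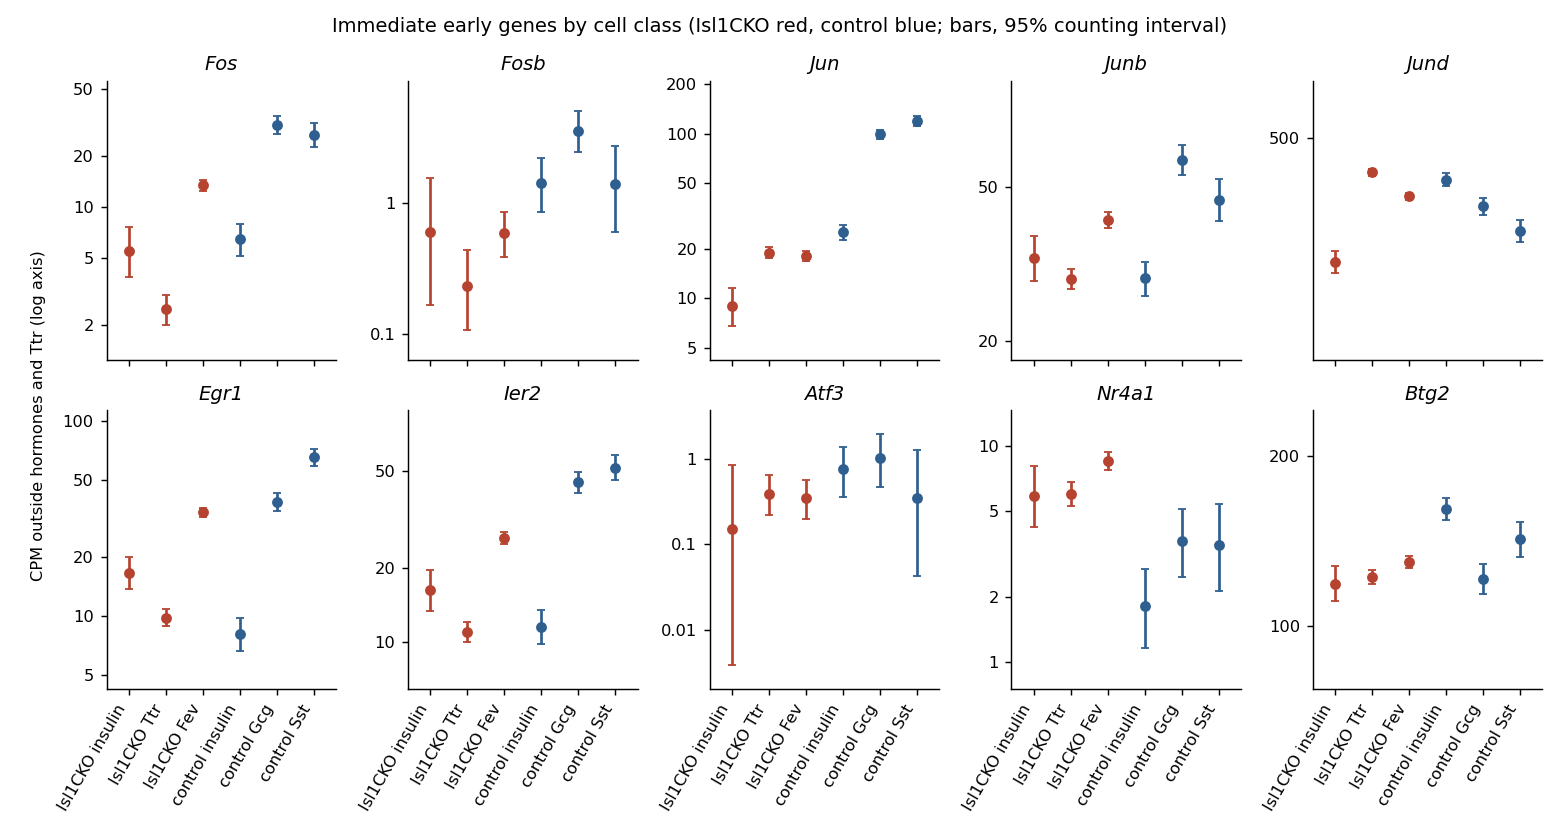
Level of each immediate early gene in 3 Isl1CKO classes (red) and 3 control classes (blue), in CPM outside the hormones and Ttr on log axes that differ between panels; bars are 95% Poisson intervals. Fos, Egr1 and Ier2 are low in both insulin classes and in the Ttr class and high in control Gcg and Sst cells, while Jund and Btg2 stay within a narrow range.

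Fos (chromosome 12, 85473890 to 85477273, plus strand, GRCm38) encodes the AP-1 partner most used to report recent stimulation. Its level was 5.46 CPM in the Isl1CKO insulin class, 2.46 in the Ttr class and 13.4 in the Fev class, against 6.41 in the control insulin class, 30.6 in the Gcg class and 26.7 in the Sst class. The intervals of the insulin classes overlapped, as did those of the control Gcg and Sst classes. Fosb, its close relative, held 46 UMIs in all Isl1CKO cells and 74 in all control cells. Its class levels ran from 0.233 CPM in the Ttr class to 0.607 in the insulin class of Isl1CKO, against 1.399 in the Sst class to 3.63 in the Gcg class of controls.

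Jun (chromosome 4, 95049034 to 95052222, minus strand), the main AP-1 activator, gave the widest gap between the libraries over all cells. It stood at 8.95 CPM in the Isl1CKO insulin class, 19.0 in the Ttr class and 17.97 in the Fev class, against 25.1 in the control insulin class, 99.1 in the Gcg class and 120 in the Sst class. All 3 Isl1CKO classes lay below the 3 control classes by this scaling. Over all UMIs, hormones included, this order did not hold for the control insulin class, with 333 Jun UMIs in 42777752. The Isl1CKO Ttr class had 731 in 43746092 and the Fev class 821 in 53023084. One control cell outside the classes held 111 Jun UMIs, 77 Jund UMIs and 50 Btg2 UMIs. Junb (chromosome 8, 84974484 to 84978718, minus strand), a Jun relative often induced with Fos, was at 32.8 CPM in the Isl1CKO insulin class, 28.9 in the Ttr class and 41.1 in the Fev class, against 29.1 in the control insulin class, 58.6 in the Gcg class and 46.3 in the Sst class. Jund, the AP-1 member that most cells express without a stimulus, was the most abundant member in every class. Its levels were 302 CPM in the Isl1CKO insulin class, 435 in the Ttr class and 394 in the Fev class, against 422 in the control insulin class, 378 in the Gcg class and 342 in the Sst class. The Isl1CKO insulin class was the lowest for Jund, and the rest lay within a narrow range. Jun, Junb, Jund and Atf3 overlap the antisense genes Junos, Prdx2, Gm11175 and Gm24748, and the sources used here do not say whether counting used strand.

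Egr1 (chromosome 18, 34859823 to 34864984, plus strand), a zinc finger factor that also acts on beta-cell genes, was at 16.7 CPM in the Isl1CKO insulin class, 9.80 in the Ttr class and 34.0 in the Fev class. Control levels were 8.07 CPM in the insulin class, 38.4 in the Gcg class and 65.2 in the Sst class. Ier2, a nuclear protein induced by growth factors, had the same order of control classes. Its levels were 16.4 CPM in the Isl1CKO insulin class, 11.0 in the Ttr class and 26.5 in the Fev class, against 11.5 in the control insulin class, 45.0 in the Gcg class and 51.7 in the Sst class. Both genes were higher in control Sst than in control Gcg cells, for Ier2 with overlapping intervals.

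Nr4a1 (chromosome 15, 101254269 to 101274795, plus strand), an orphan nuclear receptor induced by calcium and cyclic AMP signals, went the other way from Jun. It was at 5.92 CPM in the Isl1CKO insulin class, 6.01 in the Ttr class and 8.56 in the Fev class, against 1.81 in the control insulin class, 3.63 in the Gcg class and 3.496 in the Sst class. The Isl1CKO Ttr and Fev classes lay above the 3 control classes, which held 20 to 32 UMIs each. In the Isl1CKO insulin class 19 of 39 UMIs came from 1 cell, and without the cell with the most member UMIs in each insulin class its log2 ratio to the control insulin class was 0.87 in place of 1.71. Btg2, an antiproliferative gene and p53 target, was at 119 CPM in the Isl1CKO insulin class, 122 in the Ttr class and 130 in the Fev class, against 161 in the control insulin class, 121 in the Gcg class and 142 in the Sst class. Atf3, a stress-induced repressor, was nearly absent, with 26 UMIs in all Isl1CKO cells and 24 in all control cells.

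Set against each other over all cells, Isl1CKO had less Jun and Fosb and more Nr4a1 than control. A gene was compared where the group with the higher level held at least 50 UMIs, and counted as different where levels differed at least 2-fold. Of 9 members compared, 1 was higher, against 3.76% of all 14119 genes compared, and 2 were lower, against 9.77%. Jun was at 20.1 CPM in Isl1CKO and 74.9 CPM in control cells, a log2 ratio of -1.90 (-1.99 to -1.80). Fosb was at 0.722 CPM in Isl1CKO and 2.21 CPM in control cells (log2 ratio -1.62, -2.18 to -1.07), but in cells thinned to equal depth its few UMIs gave 0.41. Nr4a1 was at 7.94 CPM in Isl1CKO and 3.14 CPM in control cells, a log2 ratio of 1.34 (1.03 to 1.66). Jun and Nr4a1 kept these calls under all 14 alternative settings, Jun at -2.02 to -1.07 and Nr4a1 at 1.26 to 2.16. Fos was at 12.1 CPM in Isl1CKO and 20.3 CPM in control cells, and Ier2 at 25.3 and 35.4 CPM in the same order, both under 2-fold. Junb, Jund, Egr1 and Btg2 lay within 0.20 of 0 on the log2 scale. Under CPM over all UMIs, hormones included, all 6 of these log2 ratios were positive, 0.08 for Fos, 0.34 for Ier2, 0.71 for Junb, 0.80 for Jund, 0.86 for Egr1 and 0.63 for Btg2. The median log2 ratio was -0.19 over the 9 members compared and -0.24 over all genes compared, and it was -0.34 over the 10 members with Atf3. CPM over all UMIs moved the median of the 10 members to 0.48 and that of all genes to 0.58, with 16.9% of genes higher and 3.48% lower, and left Fosb uncalled. Without cells that held at least 3 markers of another type, the same 3 members differed. These totals mix cell classes in different proportions.

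**Figure D2:**
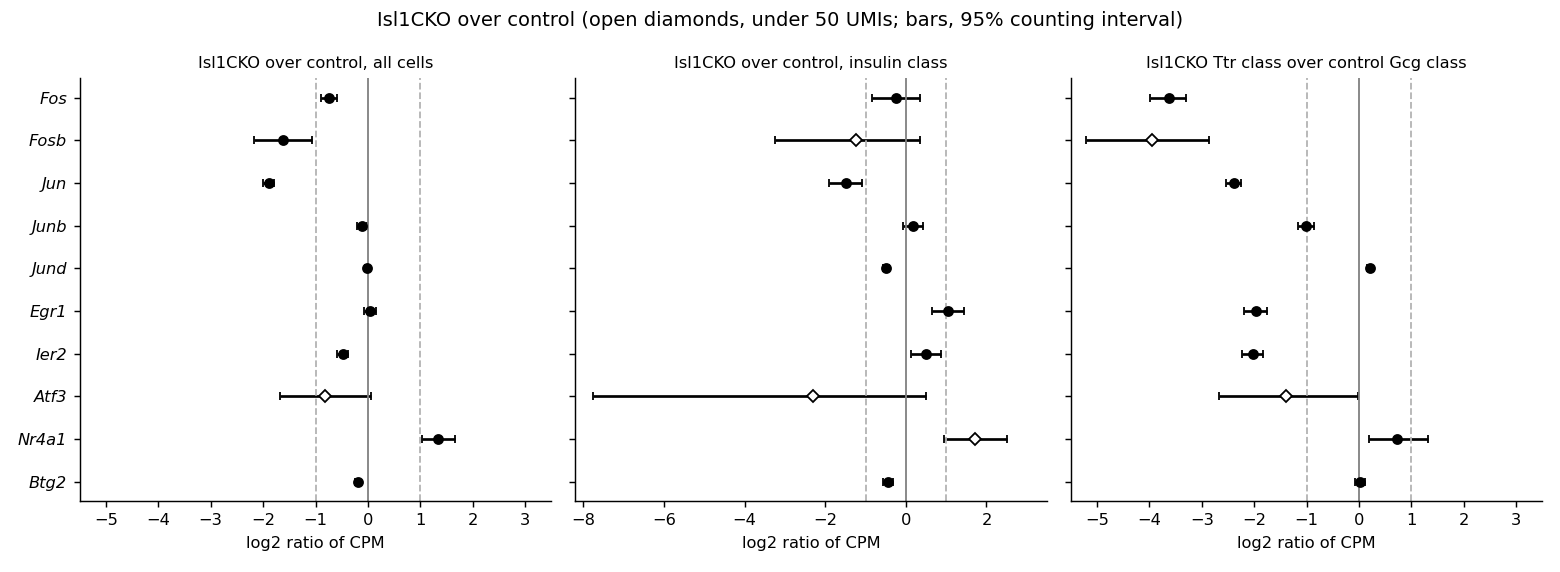
Log2 ratio of CPM, Isl1CKO over control, for all cells, for the insulin class and for the Isl1CKO Ttr class over the control Gcg class; dashed lines mark 2-fold, open diamonds have under 50 UMIs in the higher group and bars are 95% counting intervals. Jun is to the left of -1 in all 3 panels, and Nr4a1 is to the right of 0 in all 3.

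In the insulin class, the one class well filled in both libraries, Jun was again lower in Isl1CKO cells and Egr1 was higher. Of 7 members compared, 1 was higher, against 3.91% of 10643 genes, and 1 was lower, against 5.39%. Jun had 59 UMIs in Isl1CKO insulin cells and 333 in control insulin cells, a log2 ratio of -1.49 (-1.91 to -1.09). Egr1 had 110 UMIs in Isl1CKO and 107 in control insulin cells, a log2 ratio of 1.05 (0.65 to 1.44). This Egr1 value rests partly on 1 Isl1CKO cell, which held 15 Egr1, 35 Junb, 19 Nr4a1 and 29 Btg2 UMIs. Without the cell with the most member UMIs in each insulin class the Egr1 log2 ratio was 0.87. It was 0.42 among cells that met only the insulin rule, and both values were below 2-fold. Over 16 alternative settings it ran from 0.24 to 1.58 and was called in 10, and the Jun ratio ran from -1.77 to -0.95 and was called in 14. Nr4a1 had 39 UMIs in Isl1CKO and 24 in control insulin cells, too few to be compared, with 19 of the 39 in that 1 cell, and its ratio ran from -0.39 to 2.24 over the settings. Fos, Junb, Jund, Ier2 and Btg2 were within 0.51 of 0 on the log2 scale. Among cells that met only the insulin rule, however, Fos was called lower in Isl1CKO, at -3.57, and Ier2 (-0.19) and Nr4a1 (-0.39) turned negative. Isl1CKO insulin cells could also meet the Ttr or Fev rule, which was not applied to control cells, so the 2 insulin classes are not alike. The Isl1CKO cell with 15 Egr1 UMIs also met the Fev rule. Jund at -0.48 and Btg2 at -0.44 turned to 0.05 and 0.10 under CPM over all UMIs. By that scaling Ier2 was called higher, at 1.04, beside Egr1, and Jun, at -0.95, was not called. The median over the 7 members compared was -0.23, against -0.14 over all genes compared. Summed acinar markers were at 176 CPM in Isl1CKO and 163 CPM in control insulin cells, and mesenchymal markers at 0.607 and 3.25 CPM in the same order. Of 8 acinar markers, 7 had UMIs in each. Erythroid markers were at 7.28 CPM in Isl1CKO and 1264 CPM in control insulin cells, and the progenitor list at 21689 and 4928 CPM in the same order. At least 3 erythroid markers were held by 1 of 898 control insulin cells and by no Isl1CKO insulin cell. The part of these lists in these ratios was not tested. Without cells that held at least 3 markers of another type, which the erythroid and progenitor lists did not enter, Jun remained called and Egr1, at 0.98, did not.

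The Isl1CKO Ttr class held much less Fos, Jun, Egr1 and Ier2 than the control Gcg class. These classes differ by rule as well as by library, so genotype and cell type cannot be told apart here. Of 8 members compared, 5 were lower, against 13.6% of 11524 genes, and none was higher, against 5.9%. The log2 ratio was -3.63 (-3.99 to -3.29) for Fos, on 95 UMIs in Ttr cells and 270 in Gcg cells. It was -2.39 for Jun, -2.03 for Ier2 and -1.97 for Egr1. Junb, at -1.02 (-1.17 to -0.87), was not called under 4 of 16 settings, with -0.89 after thinning and -0.57 in CPM over all UMIs. Jund at 0.20 and Btg2 at 0.01 were level, and Nr4a1 was at 0.73 (0.19 to 1.31). Nr4a1 was called higher under 3 of 16 settings, at 1.18 in CPM over all UMIs, 1.01 relative to the median gene and 1.11 in cells that met only 1 class rule. Summed mesenchymal markers were at 1.504 CPM in Ttr and 50.5 CPM in Gcg cells, and acinar markers at 71.2 and 160 CPM in the same order. The progenitor list was at 11908 CPM in Ttr and 2324 CPM in Gcg cells and the ductal list at 2133 and 1070 CPM, and the part of these lists was not tested. Without cells that held at least 3 markers of the 5 other types, to which the ductal and progenitor lists do not belong, the same 5 members were lower.

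Within the control library, hormone classes differed strongly in the inducible members. Of 7 compared, 5 were at least 2-fold higher in the Gcg than in the insulin class, against 9.14% of 11258 genes, and none was lower, against 8.34%. The log2 ratios were 2.25 for Fos (1.90 to 2.62), 2.25 for Egr1, 1.98 for Jun, 1.96 for Ier2 and 1.01 for Junb (0.82 to 1.21). Junb was under 2-fold without the cell with the most member UMIs in each class, with class thresholds at 0.5 times, and after thinning (0.82). In the Sst over the insulin class, 4 of 7 were higher, against 9.08% of 10668 genes, and none was lower, against 6.96%. Egr1 led at 3.01, with Jun at 2.25, Ier2 at 2.16 and Fos at 2.06, and Junb at 0.67. Jund and Btg2 were slightly lower in Gcg and Sst than in insulin cells, at -0.41 to -0.16, but higher under CPM over all UMIs, at 0.65 to 0.98. Gcg and Sst cells share the insulin class as their comparator. Depth differed, with medians of 13528 UMIs outside the hormones and Ttr in Gcg cells, 10110 in Sst cells and 14322 in insulin cells, and median mitochondrial shares were 1.32%, 1.34% and 0.723% in that order. Summed acinar markers were at 160 CPM in Gcg cells, 627 in Sst cells and 163 in insulin cells. Mesenchymal markers were at 50.5 CPM in Gcg cells, 18.2 in Sst cells and 3.25 in insulin cells. Erythroid markers were at 2.49, 1.92 and 1264 CPM and ductal markers at 1070, 2108 and 1093 CPM in the same order. At least 3 erythroid markers were held by 1 insulin cell and by no Gcg or Sst cell. The part of these lists in the ratios was not tested. Without cells that held at least 3 markers of another type, the same 5 members were higher in Gcg cells and the same 4 in Sst cells.

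Within the Isl1CKO library, Fos, Egr1, Ier2 and Junb were higher in cells with Fev and without Ttr than in cells with Ttr and without Fev. Of 8 members compared, 4 were higher, against 13.5% of 11531 genes, and none was lower, against 4.67%. Fos was at 32.0 CPM in the Fev cells and 2.73 CPM in the Ttr cells, 11.7-fold higher, with a log2 interval of 2.99 to 4.17. Egr1 was at 74.6 CPM in the Fev cells and 9.41 CPM in the Ttr cells, 7.94-fold higher. Ier2 was 4.19-fold and Junb 2.06-fold higher. Jun did not follow them, at 20.5 CPM in the Fev cells and 26.2 CPM in the Ttr cells. The overlapping Fev and Ttr classes showed the same order, with 3 of 8 members higher, against 4.48% of 13248 genes, and none lower, against 0.00755%. The Fev cells without Ttr had a median of 15821.5 UMIs outside the hormones and Ttr and a mitochondrial share of 2.10%, against 23823.5 UMIs and 1.56% in the Ttr cells without Fev. In the overlapping classes, summed mesenchymal markers were at 11.0 CPM in Fev and 1.504 CPM in Ttr cells, and acinar markers at 165 and 71.2 CPM. Erythroid markers were at 428 and 16.4 CPM and the progenitor list at 24998 and 11908 CPM in the same order. At least 3 erythroid markers were held by 1 of 2035 Fev cells and 2 of 1445 Ttr cells. The part of these lists in the ratios was not tested. Without cells that held at least 3 markers of the 5 other types, the same 3 members were higher in the Fev class.

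**Figure D3:**
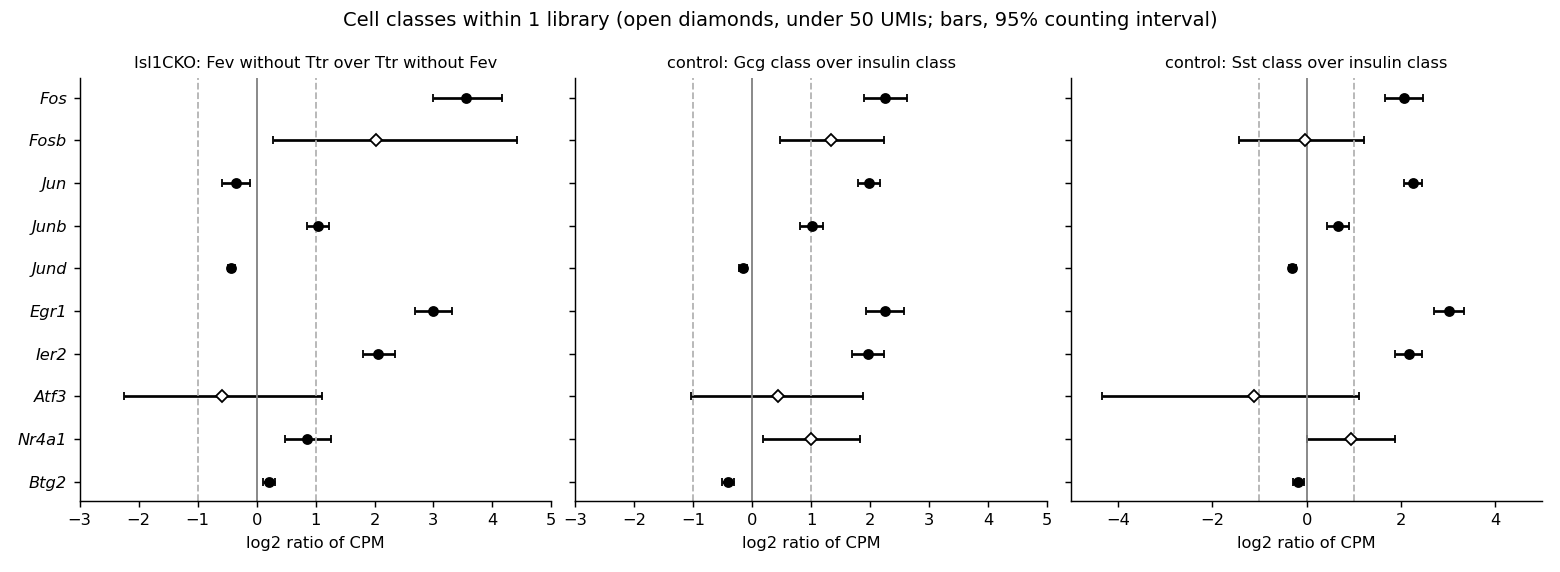
Log2 ratio of CPM between cell classes of 1 library, for Isl1CKO cells with Fev and without Ttr over cells with Ttr and without Fev, and for the control Gcg and Sst classes over the insulin class; dashed lines mark 2-fold, open diamonds have under 50 UMIs and bars are 95% counting intervals. Fos, Egr1 and Ier2 lie right of the 2-fold line in all 3 panels, Jun in the 2 control panels, and Jund and Btg2 near 0.

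Few cells carried most of the Fos and Nr4a1 UMIs. In the Isl1CKO library, the 5% of cells with the most UMIs of the gene held 77.8% of Fos and 86.2% of Nr4a1 UMIs, but 16.0% of Jund UMIs. In the control library these cells held 67.2% of Fos, 40.4% of Jun and 14.98% of Jund UMIs. Such shares rise as a gene has fewer UMIs, and Isl1CKO cells held 771 Fos, 506 Nr4a1 and 24837 Jund UMIs. The share to be had from counting alone was not computed. After each cell was thinned to 2000 UMIs outside the hormones and Ttr, which left out 3 shallower control cells, Fos was seen in 2.75% of Isl1CKO cells (2.19% to 3.40%) and in 3.80% of control cells (3.08% to 4.62%). Unthinned, these shares were 10.7% in Isl1CKO and 13.6% in control cells. Jun was seen in 3.44% of thinned Isl1CKO cells and 12.4% of thinned control cells. At least 2 of the 8 members other than Jund and Btg2 were seen together in 8.86% of thinned Isl1CKO cells with Fev and without Ttr, against 0.242% of those with Ttr and without Fev. The share was 10.9% in control Gcg cells, 9.46% in control Sst cells and 0.559% in control insulin cells. In the Isl1CKO insulin class it was 1.57% (0.577% to 3.38%). These shares rise with the levels of the members and are given as a description.

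With cell classes pooled, cells with a Fos UMI more often had other members. Of the 95 control Fos cells, 36 were in the Gcg class, 25 in the Sst class and 11 in the insulin class. The part of class in these shares was not tested. Of 83 thinned Isl1CKO cells with Fos, 33.7% had Junb, against 7.35% of the 2937 without, and 26.5% had Egr1, against 5.69%. Ier2 was in 25.3% of the Fos cells and 5.04% of the others, and Jun in 14.5% and 3.13% in the same order. Of 95 thinned control cells with Fos, 25.3% had Jun, against 11.8% of the 2406 without, and 16.8% had Egr1, against 5.44%. Jund hardly differed, at 59.0% of Fos cells and 50.2% of others in Isl1CKO, and 53.7% and 53.4% in the same order in control. Cells with Fos had lower median totals over all classes, 13384 UMIs in Isl1CKO against 25258 in cells without Fos, and 17014 against 23000 in control. Within control classes the medians were 17995 UMIs with Fos against 21182 without in Gcg cells, 14278 against 14535.5 in Sst cells and 49107 against 48374.5 in insulin cells. Within the Isl1CKO Fev class, which held 58 of the 83 Fos cells, the gap remained, at 14066.5 UMIs with Fos against 25279 without. The Isl1CKO Ttr and insulin classes had only 5 and 3 Fos cells in that order. Within the control Gcg class, Egr1 was in 11.1% of 36 Fos cells (3.11% to 26.1%) and 8.61% of the others, with overlapping intervals. Within the Isl1CKO Fev class, Egr1 was in 27.6% of 58 Fos cells and 6.37% of the others. Pearson correlations of Fos with Junb were -0.03 in control insulin, 0.01 in Gcg, 0.05 in Sst and 0.23 in Isl1CKO Fev cells. In the same order they were -0.02, 0.09, 0.05 and 0.11 with Jun, and -0.01, 0.02, 0.16 and 0.18 with Egr1. Across cells of 6 classes, the 5 genes that followed the summed members most closely were Vamp8, Tuba1a, Pax6, H3f3b and Emc6. Their mean correlations were at most 0.07, over 2160 genes ranked and on sparse counts of thinned cells. They are therefore named as a description only. Before thinning, Jund and Btg2 supplied 60.6% (control Sst class) to 87.8% (Isl1CKO Ttr class) of the UMIs in that sum.

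**Figure D4:**
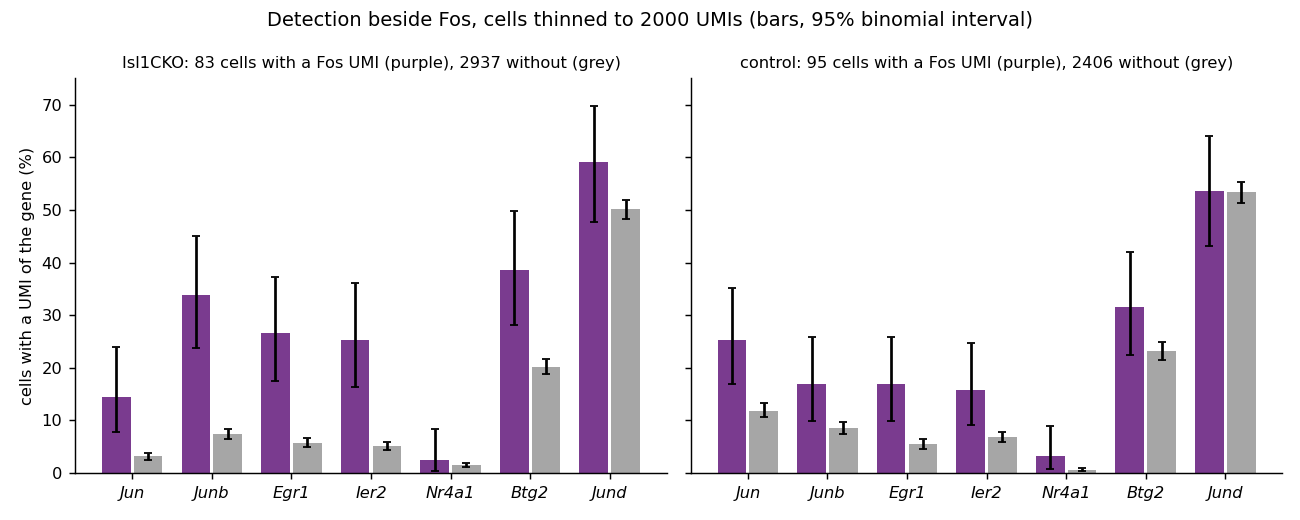
Share of cells with a UMI of each gene among cells with a Fos UMI (purple) and without (grey), for Isl1CKO (left) and control (right), after thinning to 2000 UMIs outside the hormones and Ttr; bars are 95% Clopper-Pearson intervals. With cell classes pooled, Jun, Junb, Egr1 and Ier2 are more frequent in Fos cells of both libraries, and Jund is about equal in control cells.

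Other immediate early genes had a median near that of all genes over all cells and in the insulin class, but not in the Ttr over the Gcg class. Of 35 listed, 28 could be compared over all cells. In Isl1CKO 2 were higher, against 3.76% of all genes, and 4 were lower, against 9.77%. Their median log2 ratio was -0.19, against -0.24 over all genes. Gadd45g, a stress sensor, was at 37.3 CPM in Isl1CKO and 168 CPM in control cells, Gadd45b at 17.5 and 45.8 CPM and Ier5 at 13.8 and 40.0 CPM in the same order. Zfp36l1, which promotes decay of AU-rich transcripts, was at 24.3 CPM in Isl1CKO and 8.26 CPM in control cells. In the insulin class 19 could be compared, with 1 higher, against 3.91% of all genes, and 3 lower, against 5.39%. Their median was -0.17, against -0.14 over all genes. In the Ttr over the Gcg class, 7 of 21 were lower, against 13.6% of all genes, and 1 was higher, against 5.9%. Their median was -0.60, against -0.28 over all genes. Gadd45g was at 81.5 CPM in Isl1CKO and 263 CPM in control insulin cells, and Gadd45b at 11.7 and 50.2 CPM in the same order. Dusp6, a phosphatase of the ERK pathway, was at 9.71 CPM in Isl1CKO and 3.02 CPM in control insulin cells, and Klf2, a zinc finger factor, at 2.28 and 5.36 CPM.

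The counts of the following lists are to be read against all genes compared, of which 3.76% were higher and 9.77% lower over all cells, and 3.91% higher and 5.39% lower in the insulin class. None of 13 genes of serum response factor and its ternary complex partners was 2-fold different over all cells, and none of the 12 compared in the insulin class was, with medians of -0.36 and 0.02. Of 13 CREB regulators compared over all cells, 1 was higher, Sik1, a kinase that is itself a CREB target, at 6.17 CPM in Isl1CKO and 3.05 CPM in control cells. In insulin cells 12 were compared and the phosphodiesterase Pde4d was higher, at 22.9 CPM in Isl1CKO against 8.90 CPM in control, and Pde4b lower, at 4.70 against 10.5 CPM. Among 12 other AP-1 and ATF genes compared over all cells, 1 was higher, Jdp2, an AP-1 repressor, at 4.25 CPM in Isl1CKO and 1.08 CPM in control cells. Of 9 compared in the insulin class, 1 was lower, Atf5, at 22.6 CPM in Isl1CKO and 49.3 CPM in control cells.

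The same shares of all genes, 3.76% higher and 9.77% lower over all cells and 3.91% higher and 5.39% lower in insulin cells, stand beside the counts of the stress lists. Of 13 integrated stress response genes, 3 were higher over all cells, Cebpb at 43.9 CPM in Isl1CKO and 9.21 CPM in control cells, Nupr1 at 8.10 and 2.96 CPM, and Trib3 at 2.14 and 0.748 CPM. In insulin cells, 10 were compared, with Cebpb higher at 42.5 CPM in Isl1CKO and 8.68 CPM in control and Atf5 lower. Of 12 heat shock genes 1 was lower over all cells, Hspa1a, at 2.04 CPM in Isl1CKO and 4.28 CPM in control, and none of 10 differed in insulin cells. Of 13 p53 targets compared over all cells, Eda2r was higher, at 1.65 CPM in Isl1CKO and 0.658 CPM in control, and Plk3 lower, at 1.79 and 4.82 CPM. In insulin cells 3 of 12 p53 targets were lower, among them the cell cycle inhibitor Cdkn1a at 23.5 CPM in Isl1CKO and 71.0 CPM in control, with Plk3 at 3.64 and 9.66 CPM and Phlda3 at 2.43 and 5.96 CPM. Btg3, a relative of Btg2, was the 1 of 12 BTG, TOB and CCR4-NOT genes that differed, at 83.5 CPM in Isl1CKO and 38.3 CPM in control cells, and none of 12 differed in insulin cells. Of 11 genes of AU-rich element binding proteins, which bind decay elements such as that of Fos, Zfp36l1 was higher, and Elavl4, at 27.0 CPM in Isl1CKO and 64.8 CPM in control, and Elavl3, at 0.863 and 2.24 CPM, were lower. None of 8 differed in insulin cells. Among partners and targets of Nr4a1 and its relatives, 7 with Nr4a1 itself were compared over all cells. Nr4a1 was the 1 that was higher, and the beta-cell genes Slc2a2, G6pc2 and Pcsk1 were lower, Slc2a2 at 83.7 CPM in Isl1CKO and 473 CPM in control. In insulin cells 6 were compared, with Rxra, a nuclear receptor partner, higher at 14.7 CPM in Isl1CKO and 7.09 CPM in control, and G6pc2 lower at 299 and 932 CPM. Against the medians of all genes, -0.24 over all cells and -0.14 in insulin cells, the CREB list had medians of -0.30 and -0.05 in that order, the other AP-1 and ATF genes -0.30 and -0.18, and the integrated stress response -0.08 and -0.36. The heat shock list had -0.20 and -0.28, p53 targets 0.14 and -0.35, and BTG, TOB and CCR4-NOT genes -0.32 and 0.09. AU-rich element binding proteins had -0.40 and -0.30, and the NR4A list -0.10 and 0.08.

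Control barcodes with 1 to 99 UMIs, mostly droplets without a cell, gave a measure of free RNA. It held Fos at 17.1 CPM, Jun at 44.8, Junb at 53.4, Egr1 at 22.4 and Ier2 at 50.7, each above the control insulin class and, apart from Ier2, below the control Gcg class, with overlapping intervals for Junb and Ier2 in the Gcg comparison. No cell class is known to lack these genes, so shares of cells with a UMI have no background class beside them. Jund stood there at 418 CPM and Btg2 at 62.4 CPM. Subtracting this profile at 5% of each control cell changed no count of members. The share of free RNA in each cell was not measured, and the deposited Isl1CKO matrix held called cells alone, so free RNA of that library was not analysed here.

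**Figure D5:**
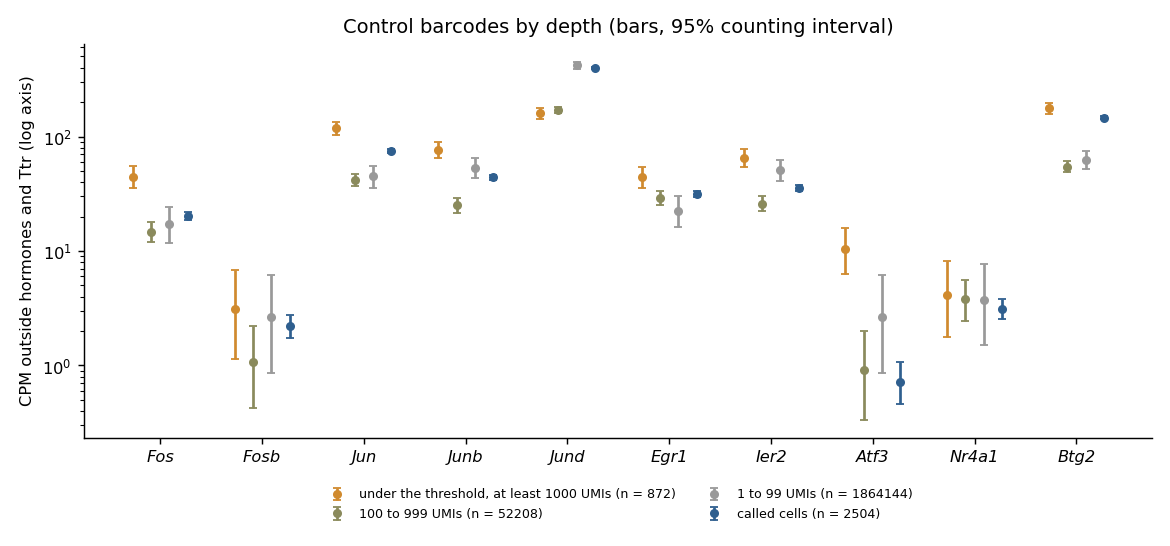
Level of each member in control barcodes by depth, in CPM outside the hormones and Ttr on a log axis, with 95% Poisson intervals. Barcodes under the cell threshold with at least 1000 UMIs have more Fos, Jun, Junb, Egr1, Ier2, Atf3 and Btg2 and less Jund than called cells.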

How the data were processed

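The data were 10x Chromium 3′ v3.1 libraries of sorted islet cells. The authors deposited raw UMI counts, whole numbers for each gene and barcode. GRCm38.p6 is named beside Seurat 4.3.0.1, STARsolo and STAR 2.7.3a, with no roles, in the submitters' processing notes. Which annotation release was counted is not given in those sources. UMIs were present in 1919728 of 6794880 control barcodes, and the Isl1CKO matrix held 3020 barcodes, the lowest with 4882 UMIs and 63 of them under the control threshold.

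Control barcodes were called at 1/10 of the 99th percentile of the top 3000. Called cells held 78068592 UMIs in Isl1CKO and 72548173 in control. UMIs were summed per class and scaled to 1000000 UMIs outside Ins1, Ins2, Iapp, Gcg, Sst, Ppy, Pyy, Ghrl and Ttr. Class rules could overlap, in 1172 Isl1CKO and 15 control cells. Ratios have exact conditional binomial, levels exact Poisson and shares Clopper-Pearson intervals at 95%. Doublets were not called, and alternatives removed cells of several classes and the 5% of cells with the most UMIs. The comparison was run on simulated counts with large known changes and counting error only. Those counts held no spread between cells or libraries, so they do not bear on that spread or on ratios near 2-fold. The members, lists, classes and comparisons were chosen with earlier results of these data known. From each list, the called genes of the all-cell and insulin-class comparisons were named, at most 4 with the most UMIs. The 5 genes most like the members were ranked by mean correlation over classes, among genes with a UMI in at least 10% of thinned cells of every class. Gene positions are from GENCODE M21 and promoters from RefSeq. Tables were handled in pandas 2.3.3 and numpy 2.4.6 under Python 3.11.15, intervals came from scipy 1.17.1 and plots from matplotlib 3.10.9.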

Additional observations from a re-analysis of the deposited data

Results flagged for a closer look

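Control barcodes under the cell threshold but with at least 1000 UMIs entered no comparison above, and 7 members were higher in them than in called control cells, with intervals that do not overlap. These 872 barcodes had a median mitochondrial share of 20.4%, against 1.14% in called cells. Fos was at 44.5 CPM in them and 20.3 CPM in called cells, Jun at 117.6 and 74.9 CPM, and Junb at 76.1 and 43.9 CPM in the same order. Egr1 was at 44.0 CPM in them and 31.6 CPM in called cells, Ier2 at 64.7 and 35.4 CPM, and Btg2 at 176.6 and 146.4 CPM. Atf3 was at 10.4 CPM in them and 0.718 CPM in called cells, but 17 of its 20 UMIs lay in 1 barcode. Jund was lower, at 160.1 CPM in them and 397 CPM in called cells. UMIs outside the hormones and Ttr were 1930586 of 2197833 in these barcodes and 33432075 of 72548173 in called cells, many of which are insulin cells. Control Sst cells held Jun at 120 CPM and Egr1 at 65.2 CPM, not below these barcodes. Fos (26.7 CPM), Junb (46.3), Ier2 (51.7) and Btg2 (142) were lower in Sst cells than in them. The part of the mitochondrial share and of cell class in these differences was not tested.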

How the results depend on the processing

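Of 126 summary values under the alternatives, 108 kept their size class or count, and of 972 single-gene values and shares 773 did. With CPM over all UMIs the median member log2 ratio over all cells was 0.48, and the summed members stood at 536 CPM in Isl1CKO cells (228 insulin, 560 Ttr, 574 Fev) and 348 CPM in control cells (207 insulin, 505 Gcg, 552 Sst). By this scaling the insulin class had 11.0% of genes higher and 2.51% lower, Ttr over Gcg cells 11.4% and 5.16%, Gcg over insulin cells 54.6% and 3.24%, and Sst over insulin cells 67.1% and 2.77%. In the insulin class the count of members called, 2 as reported, was 5 with a minimum of 10 UMIs and 5 with none. Of all genes, 5.86% were then higher and 9.1% lower with 10 UMIs, and 21.1% and 7.47% with none. The added members were Nr4a1, Fosb and Atf3, the last on 1 Isl1CKO and 10 control UMIs. The count was 1 with the mean of per-cell CPM, without cells with markers of other types, with the insulin threshold doubled, and without the cell with the most member UMIs, each time because Egr1 was lost. It was 0 after thinning, with Egr1 at 0.92 and Jun at -1.40 but under 50 UMIs. Thinning also gave 3 called for Ttr over Gcg cells and 3 for control Gcg over insulin cells, where 5 were reported, as Fos had under 50 UMIs and Junb was under 2-fold. It gave 3 for control Sst over insulin cells, where 4 were reported, as Fos, at 1.78, had under 50 UMIs. Fosb over all cells reversed to 0.41 after thinning, on 8 Isl1CKO and 5 control cells with a UMI. The comparison of cells with only Fev or only Ttr, and alternatives for the comparisons within a library, for cells in no class, for class thresholds and for single cells were added after the data were seen. No paired analysis was possible because each genotype is 1 library. Depth limits Atf3 and Fosb in every class and Nr4a1 in the control classes and the Isl1CKO insulin class.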
